A study of Mus musculus with 4 samples.

Results

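The lysosomal cathepsins measured here are the products of 10 mouse genes, Ctsa, Ctsb, Ctsc, Ctsd, Ctse, Ctsf, Ctsh, Ctsl, Ctss and Ctsz. They were taken by gene symbol, and every probe set annotated to 1 of these symbols was used. All 10 genes of 12393 named on the array were found, through 16 of the 22626 probe sets tested, with 1 probe set for each of 7 genes, 4 for Ctsb, 3 for Ctsz and 2 for Ctse. RNA came from whole liver of wild-type C57/BL6 mice aged 1 month. Of the mice, 2 were starved for 24 h and 2 served as controls, and the labels call the mice of each group biological replicates. A free-text label field speaks of injected and not-injected mice, and what it refers to was not settled. The comparison asks which cathepsin transcripts differ between starved and control liver.

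Cathepsins are the proteases that break down protein delivered to lysosomes by autophagy and endocytosis. Most are made as inactive precursors, carried to the lysosome by mannose 6-phosphate receptors and activated at acid pH. In starved liver, protein breakdown in lysosomes is known to supply amino acids, and the transcription factor Tfeb is known to promote lysosomal gene expression when nutrients are scarce. By their active site, Ctsb, Ctsc, Ctsf, Ctsh, Ctsl, Ctss and Ctsz are cysteine proteases, Ctsd and Ctse aspartic proteases and Ctsa a serine carboxypeptidase.

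Of the 16 cathepsin probe sets, 9 had a higher and 7 a lower mean in starved liver, or 56.2% and 43.8%, against 50.8% and 49.2% of all probe sets tested, so the split was close to the background. They had a median log2 change of 0.01, against 0.00 over all probe sets. The range ran from -0.93 for a Ctse probe set to 0.28 for Ctsl, and 0 of 16 differed by more than 2-fold, against 1.16% of all probe sets. None of the 16 passed the test at an adjusted p of 0.05 in limma, where 13 of 22626 probe sets, or 0.0575%, were called (0.0177% higher and 0.0398% lower). At an unadjusted p under 0.05 in limma, 3 of 16 were lower and 0 higher, against 11.5% of all probe sets in either direction, 6.04% lower and 5.42% higher. The 3 were the brighter Ctse probe set and the 2 brightest Ctsb probe sets. The 4 arrays split without overlap in 7 of the 16, or 43.8%, against 41.9% of all probe sets, so that share was close to the background. Of the 7, 4 were higher and 3 lower in starved liver, against 21.3% and 20.6% of all probe sets.

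**Figure D1:**
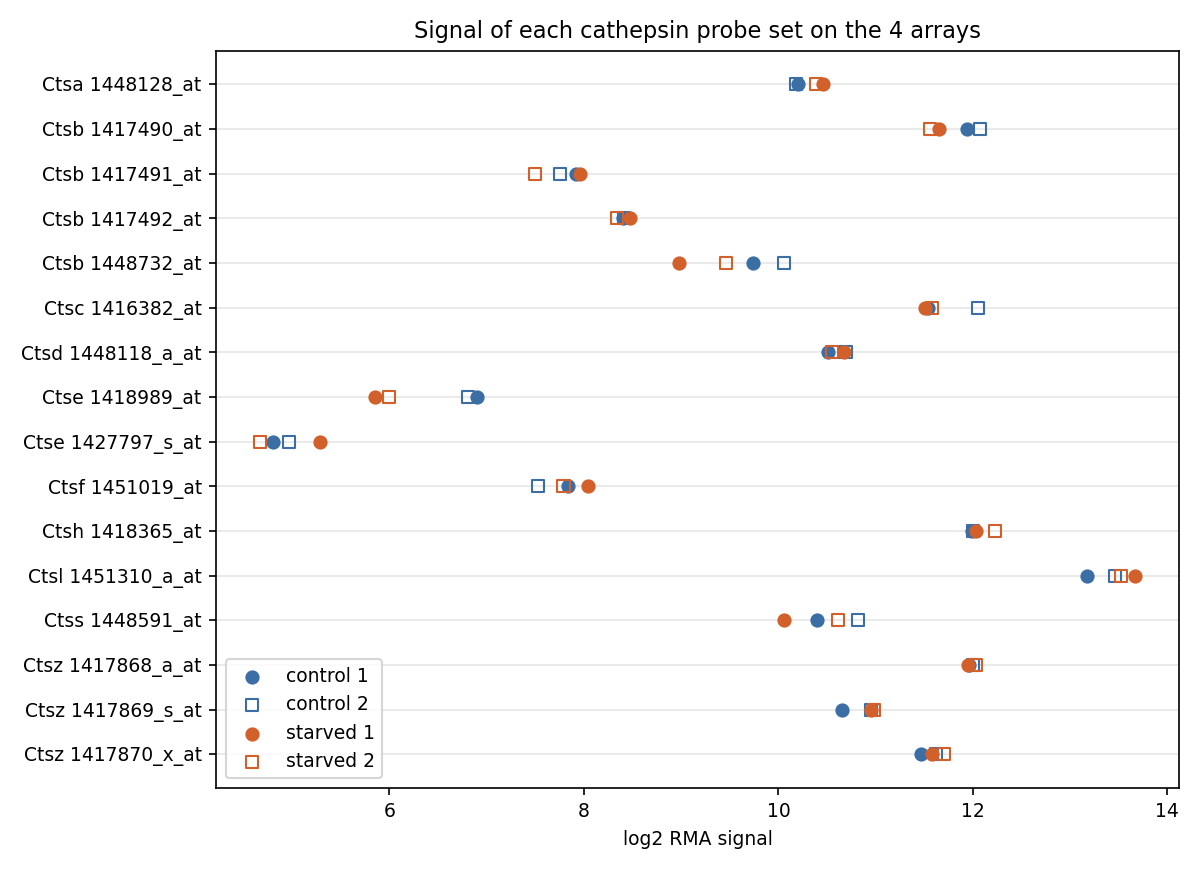
Log2 RMA signal (x axis) of each of the 16 cathepsin probe sets (y axis) on the 4 arrays, blue for control and orange for starved, filled circles for replicate 1 and open squares for replicate 2. The starved arrays lie below both control arrays for Ctse 1418989_at, Ctsb 1417490_at and Ctsb 1448732_at, while most other probe sets have mixed or nearly coinciding points.

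The arrays themselves were alike, with medians from 6.70 to 6.73 and Pearson's r over probe sets, which are no independent replicates, of 0.992 between controls, 0.994 between starved and 0.986 to 0.991 between groups. Hepatocyte genes gave mean log2 signals of 14.58 to 14.66 on the 4 arrays over 7 genes. Control 2 stood apart in acute phase genes, whose summed linear signal over 12 genes was 230825 there and 107578 to 125656 on the other arrays. The log2 signal of the 3′ minus that of the 5′ actin control probe set, which widens as RNA degrades, was 1.79 and 1.76 on the controls and 2.06 and 1.85 on the starved arrays. The part of either in the values below was not tested. In whole liver, fewer cells of a type and less RNA per cell cannot be told apart. Signals of different probe sets are not compared as amounts of RNA.

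Among the aspartic proteases, Ctse gave the smallest p of the family. Cathepsin E is an endosomal protease best known from immune cells, the stomach lining and red blood cells. Its probe set 1418989_at read 6.90 and 6.81 on the control arrays and 5.85 and 6.0 on the starved arrays (log2). Both starved arrays lay below both controls, and the gap of 0.81 between the nearest arrays exceeded the difference of 0.15 or less within either group. The means were 6.85 ± 0.06 and 5.92 ± 0.11 (SD, n = 2 per group), a log2 change of -0.93 ± 0.12 (SE), or 1.90-fold lower. The change ranked 80 by p among 22626 probe sets (adjusted p = 0.0887, limma), which did not pass the test. Adjusted p-values over all alternative fits ran from 0.0744 to 0.374, and the log2 change from -1.0 to -0.85 with 1 array left out. The mean signal of this probe set was above 44.9% of all probe sets, so it lies in the dimmer part of the array.

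A second Ctse probe set, 1427797_s_at, did not show this pattern. It read 4.80 and 4.97 on the controls and 5.29 and 4.67 on the starved arrays, so the groups overlapped, and its log2 change was 0.10 ± 0.22 (SE; adjusted p = 0.932, limma). Its signal was above only 22.0% of probe sets, and its suffix marks a set that may hybridise to more than 1 transcript. With both probe sets averaged, Ctse changed by -0.42 ± 0.12 (SE; adjusted p = 0.300, limma), against -0.93 for the brighter set alone.

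Ctsd, the main aspartic protease of lysosomes, read 10.51 and 10.69 on the controls and 10.67 and 10.55 on the starved arrays. The groups overlapped, and the log2 change was 0.01 with a 95% interval of -0.30 to 0.33, an interval that leaves out any change of 0.5 or more in either direction. Ctsa, the serine carboxypeptidase that also protects the lysosomal enzymes Neu1 and Glb1, read 10.20 and 10.18 on the controls and 10.46 and 10.39 on the starved arrays. Both starved arrays were higher, by at least 0.19, and the log2 change was 0.24 ± 0.11 (SE; interval -0.04 to 0.52; adjusted p = 0.492, limma).

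The promoters of Ctsa and Ctsd are shown because they hold the E-box CACGTG that Tfeb and its relatives are known to bind, within the longer TCACGTG. The sequences are those of RefSeq for GRCm38.p6, in windows from 250 bases before to 50 bases after an annotated start, and 7 of the 10 genes matched, with 8 windows. The stretches below run 5′ to 3′ on the gene's strand from the window's first base, up to the annotated start for Ctsd and 11 bases into the transcript for Ctsa, and capitals mark CACGTG.
Ctsa, chr2:164833523-164833783, plus strand: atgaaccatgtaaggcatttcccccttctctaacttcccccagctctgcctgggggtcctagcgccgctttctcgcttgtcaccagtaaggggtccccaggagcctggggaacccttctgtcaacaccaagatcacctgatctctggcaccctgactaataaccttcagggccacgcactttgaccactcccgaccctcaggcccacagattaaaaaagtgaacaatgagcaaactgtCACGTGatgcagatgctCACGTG
Ctsd, chr7:142387828-142388077, minus strand: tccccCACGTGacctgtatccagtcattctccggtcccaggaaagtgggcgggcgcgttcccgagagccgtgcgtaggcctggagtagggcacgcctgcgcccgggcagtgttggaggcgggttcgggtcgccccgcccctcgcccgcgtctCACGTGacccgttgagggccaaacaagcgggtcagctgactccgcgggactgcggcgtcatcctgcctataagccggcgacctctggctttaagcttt
CACGTG, which reads the same on both strands, occurred in 4 of the 8 windows, 1 each of Ctsa, Ctsd, Ctsf and Ctsl, and in 7.15% of all 32851 windows. The other Ctsa window, at another annotated start, held 0 matches. TCACGTG on either strand, which contains it, occurred in 2 of the 8, those of Ctsa and Ctsd shown, and in 3.77% of all windows. A match is a string of letters and not a measured binding site. The log2 changes of the 4 genes with CACGTG were 0.24 for Ctsa, 0.01 for Ctsd, 0.23 for Ctsf and 0.28 for Ctsl. Those of the other 3 genes with a window were -0.25 for Ctsc, -0.28 for Ctss and 0.01, 0.17 and 0.10 for the Ctsz probe sets. None of these passed the test. With 1 array left out, Ctsc ran from -0.50 to 0.01, Ctss from -0.55 to -0.001, Ctsf from 0.07 to 0.38 and Ctsl from 0.13 to 0.42. Ctsb, Ctse and Ctsh had no window, so this comparison leaves out the genes with the lowest changes of the family, Ctse and Ctsb. A link between the motif and the changes was not tested.

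Ctsb, an abundant cysteine protease of liver lysosomes that cuts both within and at the ends of proteins, was lower in starved liver by its 2 brightest probe sets. Probe set 1417490_at read 11.94 and 12.07 on the controls and 11.65 and 11.56 on the starved arrays, with both starved arrays below both controls. Its log2 change was -0.40 ± 0.12 (SE), or 24.2% lower, with a 95% interval of -0.69 to -0.10 (adjusted p = 0.312, limma). Probe set 1448732_at read 9.74 and 10.06 on the controls and 8.98 and 9.46 on the starved arrays, again without overlap. Its log2 change was -0.68 ± 0.20 (SE), or 1.60-fold lower, with an interval of -1.18 to -0.19 (adjusted p = 0.304, limma). Neither passed the test, and the second change was -0.92 without starved 2 and -0.44 without starved 1.

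The other Ctsb probe sets did not separate the groups. Probe set 1417491_at read 7.92 and 7.75 on the controls and 7.96 and 7.50 on the starved arrays, a log2 change of -0.11 ± 0.18 (SE). Probe set 1417492_at read 8.40 and 8.41 on the controls and 8.47 and 8.34 on the starved arrays, a change of -0.002 with an interval of -0.29 to 0.29. All 4 are annotated to the same gene and accession and share the same RNA, so they are not replicates, and where each lies on the transcript is not given in the sources used here. Their mean changed by -0.30 ± 0.10 (SE; adjusted p = 0.362, limma).

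Ctsl, a cysteine endopeptidase active in lysosomes of most cells, moved the other way in its means. It read 13.17 and 13.46 on the controls and 13.67 and 13.52 on the starved arrays. Both starved arrays were higher, but the nearest were only 0.05 apart, while the controls differed by 0.29. The log2 change was 0.28 ± 0.15 (SE; interval -0.09 to 0.64; adjusted p = 0.542, limma), and it was 0.13 without control 1 and 0.42 without control 2. Ctsf, a cysteine endopeptidase with an extended propeptide, read 7.84 and 7.53 on the controls and 8.04 and 7.79 on the starved arrays. The groups overlapped, and the change of 0.23 ± 0.16 (SE) did not pass the test. It was 0.07 without control 2, 0.11 without starved 1 and 0.38 without control 1.

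**Figure D2:**
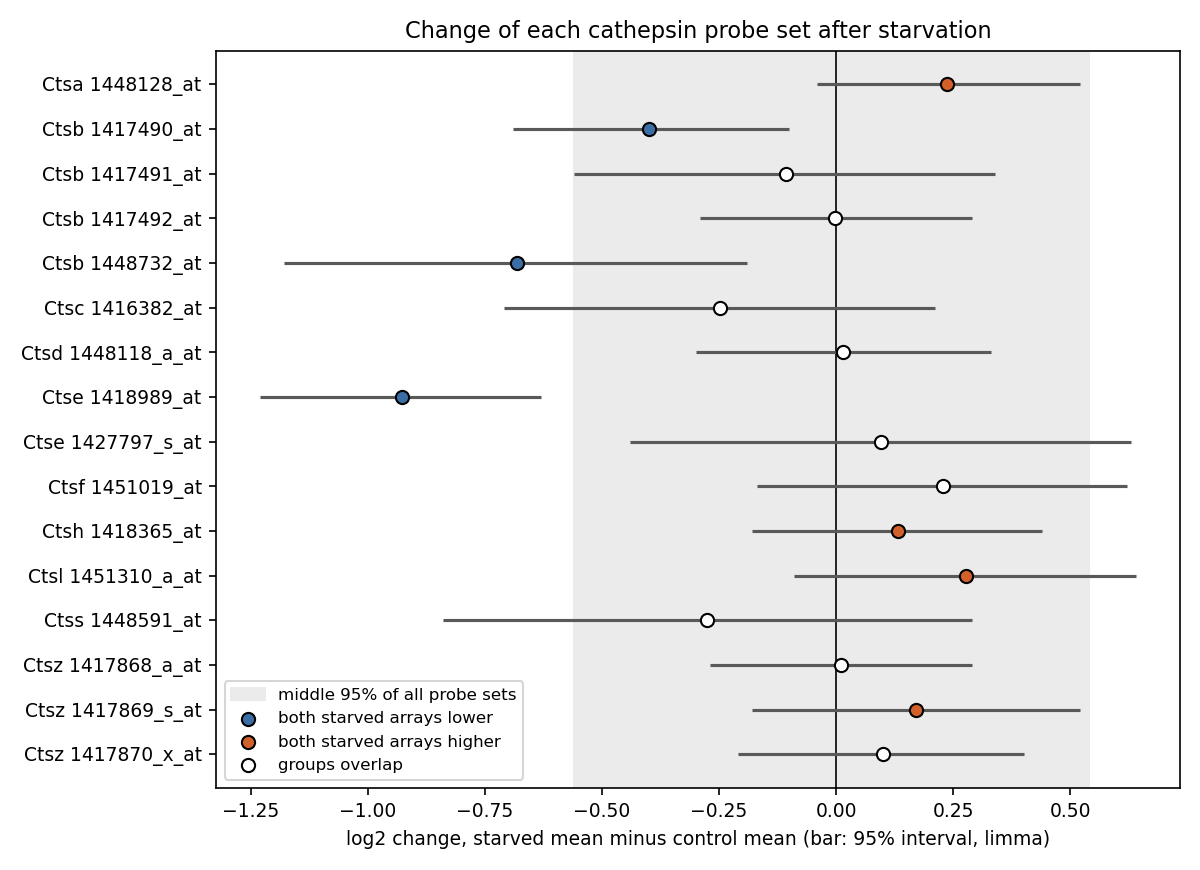
Log2 change of each cathepsin probe set (x axis, starved mean minus control mean) with its 95% interval from limma, n = 2 per group, coloured by whether the 2 starved arrays lie on 1 side of both controls. The grey band holds the middle 95% of changes over all probe sets, from -0.56 to 0.54, and Ctse 1418989_at at -0.93 and Ctsb 1448732_at at -0.68 lie outside it.

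Ctss, a cysteine protease of macrophages and other antigen-presenting cells that trims the invariant chain, read 10.40 and 10.82 on the controls and 10.06 and 10.61 on the starved arrays. The groups overlapped, and the arrays of a group differed by 0.42 and 0.55, with replicate 2 the higher in both. The log2 change was -0.28 ± 0.23 (SE; interval -0.84 to 0.29), and it was -0.55 without starved 2 and -0.001 without starved 1. Ctsc, the dipeptidyl peptidase that activates serine proteases of immune cell granules, read 11.54 and 12.05 on the controls and 11.51 and 11.58 on the starved arrays. Control 2 alone was high, and the change of -0.25 ± 0.19 (SE) was 0.01 without control 2.

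Macrophage and Kupffer cell genes differed between the same arrays. Of 14 such genes measured, 13 were higher on control 2 than on control 1 and 13 were higher on starved 2 than on starved 1. Their summed linear signal was 10551 and 14522 on the controls and 10382 and 11762 on the starved arrays. Of their 18 probe sets 1, a higher Marco, was past an unadjusted p of 0.05 in limma, against 11.5% of all probe sets. Their median log2 change was -0.13, with 14 of 18 lower, or 77.8% against 49.2%. That direction rests on control 2, since without it the median was 0.06 with 13 of 18 higher. Without control 1 the median was -0.26, with 17 of 18 lower. Of 13 antigen-presenting and lymphoid genes, 2 were higher on control 2 than on control 1 and 11 were higher on starved 2 than on starved 1. The part of either list in the Ctss and Ctsc values was not tested. Neutrophil genes summed to 355 and 700 on the controls and 361 and 449 on the starved arrays over 8 genes, of which 7 lay below the median signal of the array.

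**Figure D3:**
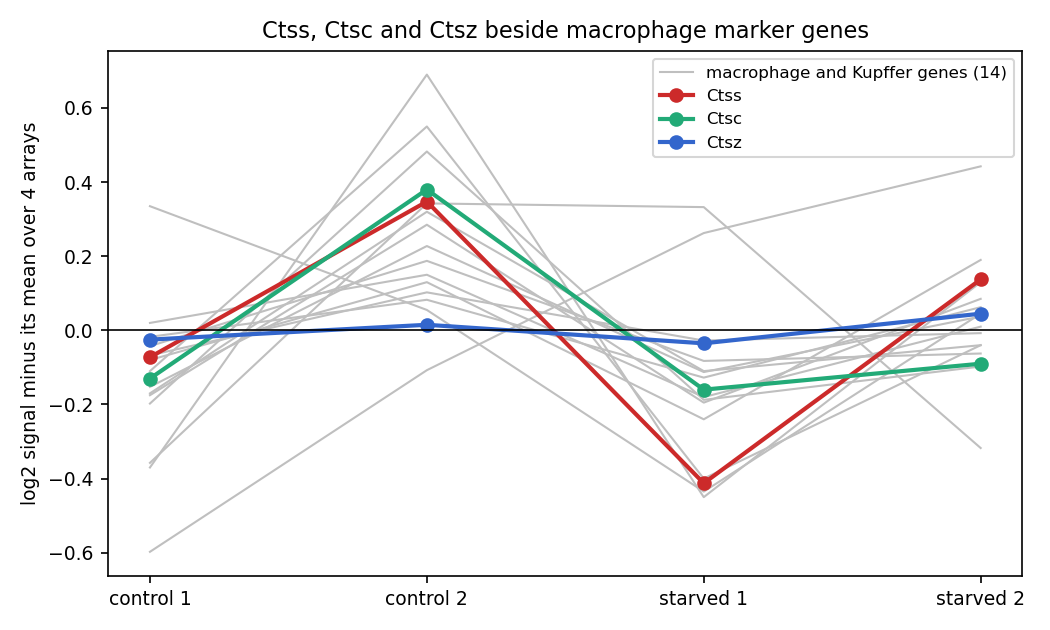
Log2 signal minus its mean over the 4 arrays (y axis) for Ctss, Ctsc and the brightest Ctsz probe set, beside the 14 measured macrophage and Kupffer cell genes in grey, each read from its brightest probe set, by array (x axis; lines join values of 1 gene and imply no order). Ctss is high on control 2 and low on starved 1, Ctsc is high on control 2, and Ctsz stays within 0.08 over the arrays.

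Ctsz and Ctsh, cysteine exopeptidases that trim the ends of proteins, gave no p under the unadjusted threshold. The brightest Ctsz probe set, 1417868_a_at, read 11.96 and 12.00 on the controls and 11.95 and 12.03 on the starved arrays. Its log2 change was 0.01 with an interval of -0.27 to 0.29. Probe set 1417869_s_at read 10.65 and 10.95 on the controls and 10.95 and 10.98 on the starved arrays, where the groups were 0.01 apart, and 1417870_x_at read 11.47 and 11.62 against 11.58 and 11.70. Their changes of 0.17 ± 0.14 and 0.10 ± 0.12 (SE) did not pass the test, and the suffixes mark sets that may hybridise to related transcripts. Without control 1 both changes were 0.02, and without control 2 they were 0.32 and 0.18. Ctsh read 11.99 and 12.00 on the controls and 12.03 and 12.23 on the starved arrays, a log2 change of 0.13 ± 0.13 (SE; interval -0.18 to 0.44), with 0.03 between the nearest arrays of the groups. Starved 2 alone was high, and the change was 0.03 without it and 0.23 without starved 1.

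The intervals set what these arrays could resolve. Of the 16 probe sets, 5 had a 95% interval wholly within 0.5 log2 units of 0, and 14 within 1 log2 unit, or 2-fold. The 2 that reached further were Ctse 1418989_at and Ctsb 1448732_at. A p that misses the threshold does not show that a transcript was level.

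Inhibitors and other lysosomal proteases had 0 probe sets past the adjusted threshold in limma, against 0.0575% of all probe sets. Of the cystatins and stefins, which block cysteine cathepsins, 9 of 16 listed genes were measured by 10 probe sets. At an unadjusted p under 0.05 in limma 0 passed, against 11.5% of all probe sets, and the median log2 change was -0.05. By each gene's brightest probe set, the 4 genes with the smallest p were Cst12 at -0.27, Stfa3 at -0.10, Cst10 at -0.09 and Cst7 at -0.09, all read from dim probe sets. Cst12 had -0.08 and Cst7 0.09 without control 1, and -0.45 and -0.27 without control 2. Cst3, whose signal was above 94.0% of all probe sets, had 0.05. Of 15 probe sets of 8 other lysosomal proteases, 2 were lower at an unadjusted p under 0.05 in limma, and the median was -0.09. Those 13.3% compare with 6.04% of all probe sets lower and 11.5% in either direction. Both were of 1 gene, Scpep1, a serine carboxypeptidase related to Ctsa. The brighter Scpep1 set read 10.02 and 10.70 on the controls and 9.31 and 9.82 on the starved arrays, a change of -0.79 ± 0.27 (SE; adjusted p = 0.370, limma), which was -0.45 without control 2 and -1.14 without control 1. The exopeptidase Dpp7 had -0.27, the carboxypeptidase Prcp -0.15 and Lgmn, the asparaginyl endopeptidase that processes cathepsin precursors, 0.14.

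Partners of the cathepsins, listed together with the cell-surface peptidase Dpp4, split by member. At an unadjusted p under 0.05 in limma, 1 of 10 probe sets was higher and 1 lower, against 5.42% and 6.04% of all. The 10 stand for 6 genes, and their median was -0.10. The galactosidase Glb1, which Ctsa protects, read 7.57 and 7.46 on the controls and 7.18 and 6.91 on the starved arrays, a log2 change of -0.47 ± 0.14 (SE; adjusted p = 0.310, limma). Neu1, the sialidase of the same complex, had 0.12 by its brightest probe set and 0.35 by 1448481_at, the set that was higher. Dpp4 had -0.34, and the invariant chain Cd74, a substrate of Ctss, -0.33, which was 0.08 without control 1. Without control 2 the median of this list was 0.00.

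Genes of mannose 6-phosphate sorting, which carries cathepsin precursors to lysosomes, and of related receptors had mostly lower means. Of 15 probe sets of 8 genes, 12 had a lower mean, or 80.0%, against 49.2% of all probe sets. At an unadjusted p under 0.05 in limma 2 were lower, or 13.3%, against 6.04%, and the median log2 change was -0.18. With 1 array left out the median ran from -0.21 to -0.12, and 9 of 15 were lower without control 1. The groups did not overlap in 11 of 15, 8 lower and 3 higher, against 20.6% and 21.3% of all probe sets, or 41.9% in either direction. The endocytic receptor Lrp1 read 10.61 and 10.83 on the controls and 10.30 and 10.03 on the starved arrays, a change of -0.55 ± 0.15 (SE; adjusted p = 0.278, limma). The sorting receptor Sort1 read 8.72 and 8.78 against 8.47 and 8.48, a change of -0.28 ± 0.11 (SE; adjusted p = 0.432, limma). The adaptor Gga1 had -0.21 and the cation-dependent receptor M6pr -0.18, with groups that did not overlap.

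Of the MiT/TFE factors, 3 of 4 genes were measured by 4 probe sets. At an unadjusted p under 0.05 in limma 0 passed, against 11.5% of all probe sets. Tfeb read 7.29 and 7.36 on the controls and 7.12 and 7.29 on the starved arrays, a change of -0.12 ± 0.12 (SE), and Mitf had 0.27. Tfec read 5.83 and 5.72 on the controls and 6.38 and 5.8 on the starved arrays, high on starved 1 alone, and its change of 0.31 was 0.03 without that array. The median of the 4 probe sets was 0.19, or 0.03 without starved 1.

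**Figure D4:**
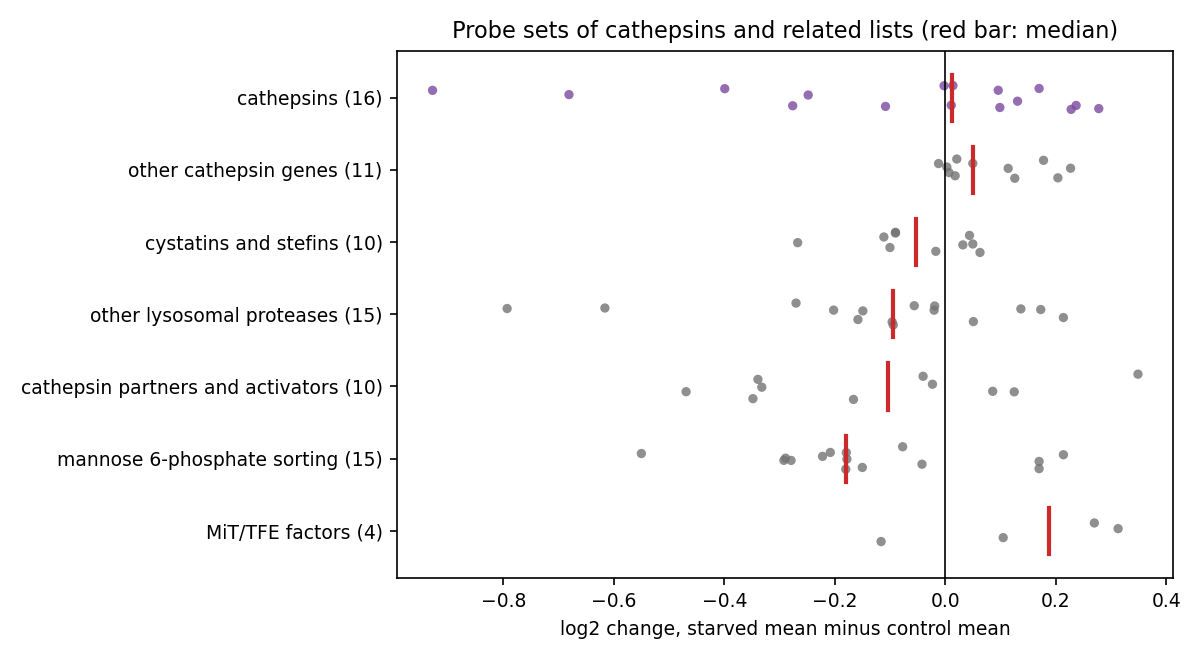
Log2 change (x axis, starved mean minus control mean) of each probe set of the cathepsins and of 6 related lists (y axis, number of probe sets in brackets), with a red bar at each list's median. The medians run from -0.18 for mannose 6-phosphate sorting to 0.19 for the 4 probe sets of MiT/TFE factors, and the cathepsins lie around 0.01 with Ctse 1418989_at and the brighter Ctsb probe sets at the low end.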

How the data were processed

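Liver RNA of 4 mice, 2 starved and 2 control, was labelled with biotin and hybridised to an Affymetrix array. The submitters' processing notes name affy and RMA, with which the authors made the deposited log2 values, 1 per probe set. Tool versions and any further arrays in that normalization are not stated there. Because RMA makes array distributions alike, a change shared by every transcript is hidden, and no detection calls were used.

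Of 22690 probe sets, 64 Affymetrix controls were left out. In GEO's platform annotation 20380 had 1 gene symbol, 691 several and 1555 none, and the last 2 classes were not named. Symbols were checked through Entrez identifiers in a RefSeq table of GRCm38.p6, which matched 20351. Starved and control arrays, grouped by title, were compared in limma 3.58.1 (lmFit, eBayes; R 4.3.3) with two-sided tests, without covariates, with Benjamini-Hochberg adjustment over all 22626 probe sets and a threshold of 0.05. Prior and total degrees of freedom were 3.83 and 5.83, and the log2 changes had a median standard error of 0.133. The number of arrays limits the precision, and the spread that p-values measure is that between these mice. The code was tested on simulated data.

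Every member probe set was given values. Of the lists of other cathepsins, cystatins, lysosomal proteases, partners, sorting, MiT/TFE and acute phase genes, up to 4 genes with the smallest p were named by their brightest probe set, and any other gene named was chosen after its values were seen. Groups do not overlap where both starved arrays lie on 1 side of both controls. The members and lists were chosen with earlier results of these data known. Alternatives were a common array median, a further quantile normalization, removal of the dimmest 40% or of _x_at and _s_at probe sets, 1 probe set or the mean per gene, trend and robust eBayes, a replicate block and each array left out.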

Additional observations from a re-analysis of the deposited data

How the results depend on the processing

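Under the alternatives with all 4 arrays 0 cathepsin probe sets or genes passed an adjusted p of 0.05 in limma. At an unadjusted p under 0.05 in limma, 3 of 13 to 16 probe sets passed, or 2 of 10 where each gene counted once. The share of all probe sets or genes was 11.2% to 14.1%. Over all 12 alternatives the median log2 change stayed between -0.023 and 0.054, within the spread between arrays of a group (SD 0.080). With all 4 arrays the groups did not overlap in 6 or 7 of 13 to 16 probe sets, or in 5 of 10 where each gene counted once. The share of all probe sets or genes was 41.4% to 47.0%. With 1 array left out the count was 9 to 14 of 16. There 3 arrays separate more easily, and 67.9% to 73.6% of all probe sets did so. Of 176 values of single probe sets under the alternatives, 165 kept their direction and 11, from 6 probe sets with changes of at most 0.25, changed sign. After a further quantile normalization Ctsb 1417492_at had 0.01 and Ctsz 1417868_a_at -0.02, and the cause was not tested. With 1 array left out the changes ran from -0.34 to 0.12 for Ctsb 1417491_at, -0.07 to 0.06 for Ctsb 1417492_at, -0.50 to 0.01 for Ctsc, -0.08 to 0.11 for Ctsd, -0.21 to 0.40 for Ctse 1427797_s_at and -0.03 to 0.05 for Ctsz 1417868_a_at. Trend and robust settings raised the calls over all probe sets from 13 to 59, removal of _x_at and _s_at probe sets to 23, and 1 probe set per gene gave 8. With 1 array left out 2 to 57 were called. No cathepsin was among these calls.

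With the replicate number as a block, 0 cathepsin probe sets passed and the median was 0.012. At an unadjusted p under 0.05 in limma there were 3 of 16, against 11.2% of all probe sets. Over all probe sets the block took the calls from 13 to 0 in limma. The numbers are shared by title only, and deviations of same-numbered arrays correlated at 0.0383, so the arrays are not taken as paired. With 1 array left out, the lone array of a group borrows its spread from the other group's arrays.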

Other observations

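Cathepsin genes outside the lysosomal set gave low signals in these livers. Of 12 listed genes 11 were measured, each by 1 probe set, and all 11 lay below the median signal of the array. They include Ctsg, a serine protease of neutrophil granules, Ctsk, the collagen-degrading protease of osteoclasts, Ctsw of cytotoxic lymphocytes, and the placental cathepsins Ctsj, Ctsm, Ctsq, Ctsr, Cts3, Cts6, Cts7 and Cts8. None was past an unadjusted p of 0.05 in limma, against 11.5% of all probe sets. The median log2 change was 0.05 and the range -0.01 to 0.23. Of the 11, 10 had a higher mean in starved liver, or 90.9%, against 50.8% of all probe sets. The groups did not overlap in 5, all higher, or 45.5%, against 21.3% of all higher and 41.9% in either direction. The count of higher means was 10 without control 1, 9 without starved 1 and 7 without control 2 or without starved 2. After a further quantile normalization it was 8. The smallest p belonged to Cts7 at 0.23, Ctsq at 0.20, Ctsg at 0.18 and Ctsr at 0.13. Without starved 1 these changes were 0.09, 0.06, 0.09 and 0.16. Without detection calls a low signal is not absence.

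Acute phase genes had lower means in starved liver in 14 of 14 probe sets, against 49.2% of all probe sets. At an unadjusted p under 0.05 in limma 4 were lower, against 6.04% of all. The 4 were both sets of Saa4, at -0.93 ± 0.12 and -1.52 ± 0.24 (SE, log2), Orm1 at -0.67 ± 0.19 and Itih4 at -0.42 ± 0.13. Apcs, at -1.06 ± 0.44, was not among them. The median of the 14 was -0.85 and rests largely on control 2, since without that array it was -0.19 with 3 of 14 higher. Without control 1 it was -1.55 with 14 of 14 lower. Among cell type markers, the summed signals of antigen-presenting and lymphoid genes were 3410 and 1468 on the controls and 1702 and 2218 on the starved arrays. Those of sinusoidal endothelial genes were 5170 and 2618 against 4133 and 3394, and those of stellate and mesenchymal genes 7327 and 4230 against 6025 and 5924. Cholangiocyte genes summed to 211 and 209 against 229 and 271, and erythroid genes to 1241 and 977 against 981 and 964. The erythroid sum covers 4 genes that split by member. Alas2, by far the brightest, had a log2 change of -0.27 and Slc4a1 0.90 ± 0.18 (SE), while Hba-a1 had -0.05 and Epb42 -0.02.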
